A study of Gossypium hirsutum with 6 samples.

Results

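Broad H3K4me3 peaks that recurred in a second library of cotton leaf chromatin are described here. They were chosen by 3 conditions: a peak of the H3K4me3 replicate 1 list of at least 1500 bp, an overlap of at least 1 bp with a peak of the second narrow list, and no overlap with a peak of the H3K27me3 replicate 1 list. Of 69877 H3K4me3 replicate 1 peaks on the 26 chromosomes of the allotetraploid Gossypium hirsutum, 677 met all 3 conditions, 303 on chromosomes A01 to A13 of the A subgenome and 374 on D01 to D13 of the D subgenome. These values of width and overlap made the choice, so they are given as a description and support nothing by themselves.

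The series profiled leaves of 20-day-old plants of the inbred line TM-1 by chromatin immunoprecipitation and sequencing (ChIP-seq) after micrococcal nuclease digestion. It has 2 H3K4me3, 2 H3K27me3 and 2 input libraries, all from the same untreated genotype. The processed files are lists of peak positions for the 4 immunoprecipitated libraries, 174507 peaks in all, with no peak height and no read number, so the depth behind a peak is unknown. The study calls the libraries of a mark biological replicates, and which plants each came from is not given in the sources used here.

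H3K4me3 is trimethylation of lysine 4 of histone H3, laid down by COMPASS-like methyltransferases and found mainly around the start of transcribed genes. In plants it usually forms a compact domain just downstream of the transcription start, and broader domains reach further into the gene. H3K27me3, made by Polycomb repressive complex 2, covers silenced developmental genes and tends to form wide domains. A narrow-mode peak is a single called stretch, and the width of a peak is the length of that stretch in bp. Whether short parts without enrichment lie inside a stretch cannot be seen from the lists.

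The second narrow list needs a caution before any result. Its sample is labelled H3K27me3 replicate 2, while its deposited name carries H3K4me3, and the selection followed the name. On the 26 chromosomes, 89.8% of its 42643 peaks (exact 95% interval 89.5 to 90.1%) overlapped an H3K4me3 replicate 1 peak and 1.57% (1.45 to 1.69%) overlapped an H3K27me3 replicate 1 peak. The remaining list, called the broad second list here, belongs to the sample labelled H3K4me3 replicate 2. Of its 24430 peaks, 32.8% overlapped H3K4me3 replicate 1 and 80.1% overlapped H3K27me3 replicate 1. Taken by the labels instead, the list labelled H3K4me3 replicate 2 overlapped 164 of all 997 H3K4me3 replicate 1 peaks of at least 1500 bp (16.4%, 14.2 to 18.9%). In the width classes under 1500 bp this share lay between 10.3% and 15.8%. Of the 997, the list overlapped 150 of the 161 that lay on H3K27me3 and 14 of the 836 that did not. The condition on H3K27me3 largely fixes that split. The intervals here and throughout cover counting error only and treat peaks as independent. With 2 libraries of each mark an exact permutation test between marks cannot go below p = 0.333, so none was run. By the read totals that the study lists, both second libraries were sequenced more deeply than the first H3K4me3 library.

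There were 997 peaks of at least 1500 bp, 1.43% of the H3K4me3 replicate 1 peaks, and 712 of them (71.4%, 68.5 to 74.2%) overlapped the second narrow list. Of the 320 broad peaks that were not kept, 126 lay on H3K27me3 and outside the second narrow list, 35 lay on H3K27me3 and in the second narrow list, and 159 lay in neither. Off H3K27me3, 677 of 836 broad peaks (81.0%, 78.2 to 83.6%) were in the second narrow list. There, 35679 of 59270 peaks under 1500 bp (60.2%, 59.8 to 60.6%) were. On H3K27me3, 35 of 161 broad peaks (21.7%, 15.6 to 28.9%) were. Keeping peaks on H3K27me3 raised the 35679 only to 36277, although 9771 H3K4me3 replicate 1 peaks of all widths lay on H3K27me3. The lower share there was thus not confined to broad peaks. With H3K27me3 disregarded, 52.9% of all 69877 peaks were in that list. From 1000 to under 1250 bp 75.5% were, so the 71.4% of broad peaks was not the highest share. The comparison set for all that follows is the 35679 peaks under 1500 bp that met the other conditions, called narrower peaks.

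The 677 broad peaks were mostly only a little above the width minimum. Their median width was 1696 bp, with quartiles of 1576 and 1876 bp and a maximum of 3571 bp. Only 115 reached 2000 bp, 30 reached 2500 bp and 3 reached 3000 bp. In the A subgenome the median was 1681 bp, and in the D subgenome 1705.5 bp. At the threshold there was no gap in the distribution. The class from 1400 to under 1500 bp, just outside, held 308 peaks that met the other conditions, and the class from 1500 to under 1600 bp, just inside, held 206. The widest second-list peak had a median of 738.5 bp just outside and 833.5 bp just inside, and 33.8% and 31.6% respectively lay over more than 1 second-list peak.

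In the second narrow list the same places were marked by shorter stretches. Width in the first list chose these places, so a shorter width in the second is given as a description only. Over all peaks the median width was 495 bp in H3K4me3 replicate 1 and 474 bp in the second narrow list. The widest second-list peak on a broad peak had a median width of 859 bp (quartiles 520 and 1192 bp, range 200 to 2698 bp), against 532 bp (352 and 728 bp) on narrower peaks. Medians were 871 bp for A and 843 bp for D. The second-list peaks on 1 broad peak summed to a median of 1065 bp. In the second list 83 broad peaks (12.3%, 9.88 to 15.0%) again carried a peak of at least 1500 bp, 40 of them in the A and 43 in the D subgenome. Among narrower peaks 164 (0.460%) did. A second-list peak of at least 1000 bp lay on 36.9% of the broad and 6.72% of the narrower peaks, and 22.5% and 45.4% had none of 500 bp or more. Only 30 broad peaks were wider in the second list than in the first. From the other side, the second narrow list held 189 peaks of at least 1500 bp, of which 83 (43.9%) lay on 1 of the 677, all 189 lay on some H3K4me3 replicate 1 peak and 4 lay on H3K27me3.

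The difference from narrower peaks was tested over the 13 homoeologous chromosome pairs, each an A and a D chromosome that share a number. In each pair the log2 ratio of the medians was averaged over A and D. The widest second-list peak was 0.70 ± 0.09 higher on the log2 scale (SD, 13 pairs), a 1.63-fold difference, with 13 of 13 pairs above 0 (two-sided exact permutation test of signs, p = 0.000244, adjusted p = 0.00195 over 8 tests). This p is the smallest that 13 pairs can give. A wider stretch can also touch more second-list peaks. When the second-list peak over the midpoint was used instead, the difference was 0.88. That setting leaves out peaks with no second-list peak there, and 68.7% of the broad peaks were covered at the centre. Against peaks from 1000 to under 1500 bp alone the difference was 0.25. Over all 12 alternatives the adjusted p of the exact permutation test was between 0.000977 and 0.00195. Chromosome pairs are parts of the same libraries, so these p-values describe how evenly a difference ran along the genome and not how it would vary between plants.

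**Figure D1:**
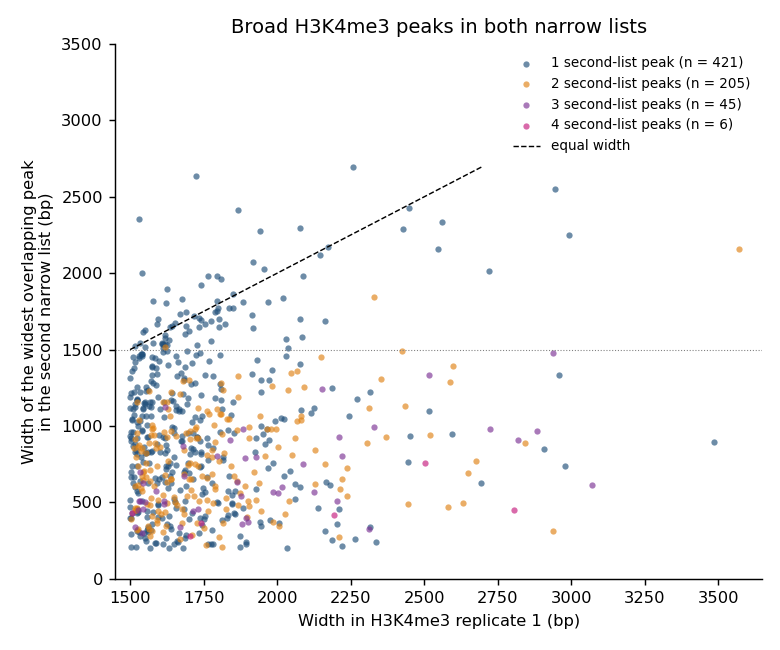
Each point is 1 of the 677 broad peaks, with its width in H3K4me3 replicate 1 (bp) on the horizontal axis and the width of its widest second-list peak (bp) on the vertical axis. Colours give the number of second-list peaks, and most points lie below the dashed line of equal width: 83 reach 1500 bp on the vertical axis and 30 exceed their own first-list width. Width in the first list chose the points, so their place below that line is a description only.

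Many broad peaks were split in the second list. A single second-list peak lay on 421 (62.2%, 58.4 to 65.9%), and 256 (37.8%, 34.1 to 41.6%) lay over 2 or more. Of those, 205 lay over 2, 45 over 3 and 6 over 4. Across all 36356 peaks that met the other conditions the share over 2 or more was 6.59%, and it held for 2139 of the 35679 narrower peaks. Because a longer stretch has more room for several peaks and width chose the members, the excess over that background is read as a description only. The share was higher in each wider class, with no break at the threshold. It was 18.6% for peaks from 1000 to under 1250 bp, 27.5% from there to under 1500 bp, 32.2% from there to under 1750 bp, 42.4% from there to under 2000 bp and 51.3% from 2000 bp upwards.

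Within the broad peaks the same order held. The second list split 65 of 206 peaks under 1600 bp (31.6%, 25.3 to 38.4%) and 18 of 30 peaks of 2500 bp or more (60.0%, 40.6 to 77.3%). Over the same classes the median widest second-list peak moved only from 833.5 to 944.5 bp. Peaks that were split had a median width of 1737.5 bp, against 1674 bp for those with a single second-list peak. On A chromosomes 112 of 303 (37.0%) were split and on D chromosomes 144 of 374 (38.5%). The D minus A difference was 0.917 ± 11.7 percentage points (SD, 13 pairs), above 0 in 7 of 13 pairs (exact permutation test, p = 0.781, adjusted p = 0.781), so the spread between pairs was far larger than the difference. By chromosome the share ran from 1 of 12 on A09 (8.33%) to 11 of 19 on A02 (57.9%).

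**Figure D2:**
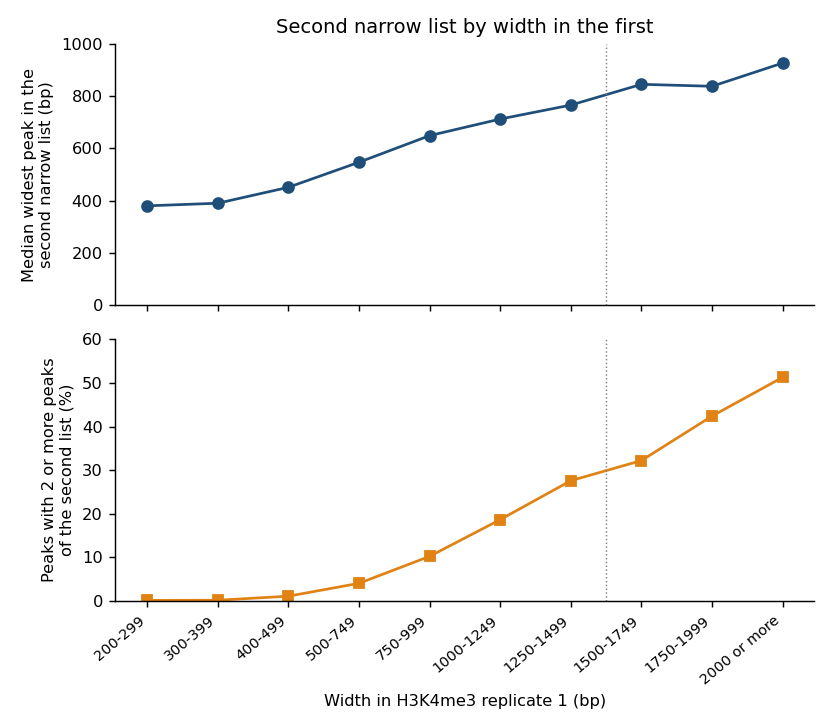
Peaks of H3K4me3 replicate 1 that met the overlap conditions are grouped by width (bp) on the horizontal axis, with the median width of the widest second-list peak (bp) and the share split by the second list (percent) on the vertical axes. The split share is higher in each wider class and the median width in all but one, 838 bp after 845.5 bp, and they reach 51.3% and 927 bp in the class of 2000 bp or more.

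The interruptions were short. Between neighbouring second-list peaks on the same broad peak there were 313 gaps, with a median of 219 bp (upper quartile 316 bp, range 124 to 1284 bp). The smallest gap anywhere in the second narrow list was also 124 bp, and 25% of the gaps on broad peaks were no longer than 166 bp. The 569 pieces on split peaks had a median width of 456 bp. For comparison, the smallest gap in the H3K4me3 replicate 1 list was 151 bp. Gaps shorter than 151 bp thus occurred in the second narrow list and not in the first. The part of this difference in the split count was not tested.

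Second-list peaks covered a median of 60.0% of a broad peak (quartiles 39.9 and 77.4%). At least 50% was covered in 425 of the 677 (62.8%, against 84.2% of narrower peaks) and at least 80% in 144 (21.3%, against 52.5%). Full coverage was found for 12 (1.77%, against 18.2%), and 46 (6.79%, against 1.26%) were covered over less than 20%. Coverage was highest in the middle. When each peak was cut along the chromosome into 10 slices of equal width, the mean covered share was 41.4% in the first slice, 69.2% in the fifth and 40.7% in the last. Split peaks were covered to a median of 63.4% and unsplit ones to 54.8%.

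Both ends were at least partly uncovered in 404 broad peaks, 1 end in 232 and neither in 41, and the lengths were unequal. The shorter uncovered end had a median of 26 bp and the longer a median of 444 bp, with a maximum of 2606 bp. An end of more than 500 bp was uncovered in 316 broad peaks, and in 26 of them both ends were. The longer end was the one at lower coordinates in 317 and the one at higher coordinates in 317. Strand was not known for these peaks, so which end faces a gene start was not tested. Second-list peaks reached past the lower end of 164 broad peaks and past the higher end of 143, including 41 where they passed both, and past neither end of 411.

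**Figure D3:**
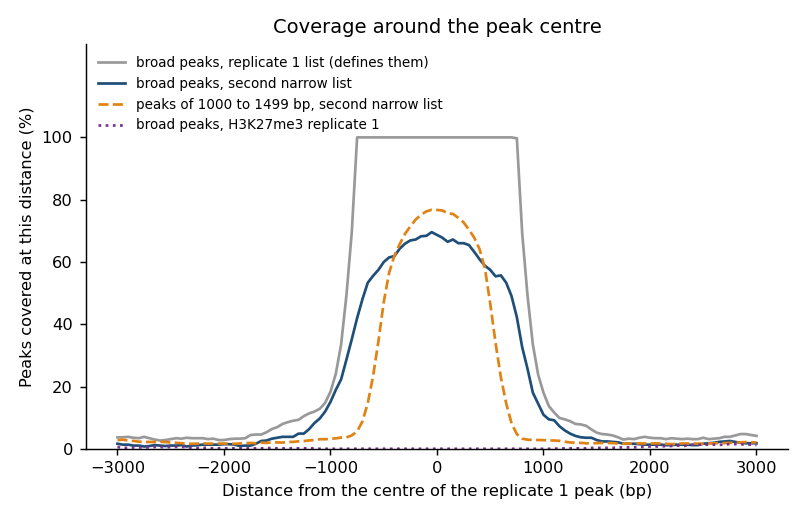
The horizontal axis is the distance from the centre of the H3K4me3 replicate 1 peak (bp) and the vertical axis the share of peaks (percent) covered there by each list. At the centre the second narrow list covered 68.7% of the 677 broad peaks and 76.7% of the peaks from 1000 to under 1500 bp, and at 750 bp to either side 41.9% and 42.2% of the broad peaks against 5.57% and 4.72%. The replicate 1 list itself covered that distance in 100% and 99.7% of the broad peaks and in 0.962% of the others. Because width chose both sets, the contrast at 750 bp is a description only.

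The regions named here were chosen by extremes in each subgenome, and coordinates, counted from 1, refer to the published TM-1 genome to which the study aligned its reads. The genes at these places were not analysed here. The widest broad peak of all, D10:36157436-36161006, measured 3571 bp and carried 2 second-list peaks of 589 and 2157 bp with 529 bp between them, together 76.2% of its width. Its nearest H3K27me3 replicate 1 peak was 506478 bp away. The next on D chromosomes, D01:49261848-49265333, measured 3486 bp, yet its only second-list peak measured 897 bp and covered 25.2% of it. D13:55009232-55012224 measured 2993 bp with 1 second-list peak of 2251 bp covering 75.2%. Of these 3, the D01 peak was the one that the second list left mostly uncovered.

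On A chromosomes the widest was A10:94927891-94930960 at 3070 bp, over which the second list placed 3 peaks of 200, 615 and 375 bp, 38.8% of its width. A13:72722276-72725220 at 2945 bp had 1 second-list peak of 2548 bp, which covered 85.5%. A03:36635168-36638106 at 2939 bp had 3 second-list peaks of 278, 668 and 1477 bp, 68.5% in all, and another A03 peak of the same width, at 98456989-98459927, was covered over only 18.8%, by pieces of 316 and 238 bp with 1022 bp between them. The widest second-list peaks on any member of each subgenome measured 2698 bp on A05:3460783-3463040, itself 2258 bp, and 2429 bp on D09:924703-927149, itself 2447 bp. The second list covered 92.8% of the first and 99.3% of the other.

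The 6 peaks over 4 second-list peaks ranged widely in width, from 1506 to 2804 bp, and in coverage, from 42.6 to 78.2%. A02:5846841-5848542, at 1702 bp, lay over pieces of 210, 279, 262 and 266 bp, and A09:68607912-68610413, at 2502 bp, over pieces of 249, 757, 661 and 290 bp. D03:40049591-40051096, at 1506 bp, lay over pieces of 241, 291, 428 and 200 bp, and the other 3 on D chromosomes were 1741, 2194 and 2804 bp wide.

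Other H3K4me3 peaks were a few kb away. The nearest other H3K4me3 replicate 1 peak lay at a median of 4634 bp from a broad peak (quartiles 1565 and 10903 bp) and at 3850 bp (522.5 and 8945 bp) from a narrower one. A neighbour within 500 bp was found for 106 broad peaks (15.7%) and for 24.6% of narrower peaks, and one within 1 kb for 147 (21.7%) and 29.8%. The log2 ratio of median distances was 0.20 ± 0.39 (SD, 13 pairs), above 0 in 10 of 13 pairs (exact permutation test, p = 0.0847, adjusted p = 0.136), which did not pass. The direction depended on what the broad peaks were set against. Against peaks from 1000 to under 1500 bp it was -0.17 (exact permutation test, adjusted p = 0.323). Where the second narrow list was not used at all, so that all 836 broad peaks off H3K27me3 were set against 59270 narrower ones, it was 0.47 (exact permutation test, adjusted p = 0.00781). Among peaks that met the overlap conditions, the median distance was 543.5 bp for widths of 200 to 299 bp and 2871 bp for 400 to 499 bp. In the wider classes, from 500 bp upwards, it lay between 4394 and 5136 bp. The part of peak width itself in these distances was not tested.

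Some broad peaks stood alone. A13:19295842-19298489, 2648 bp wide, was the most isolated of A chromosomes, with 351360 bp to the nearest other H3K4me3 replicate 1 peak, and 2 second-list peaks of 325 and 692 bp on it. On D chromosomes it was D08:32605142-32606850, 1709 bp wide, at 217312 bp from its neighbour and with 1 second-list peak of 1029 bp. It lay near the middle of its chromosome, at 49.5% of the chromosome length from the nearer end.

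Broad peaks were only 677 of the 69877 H3K4me3 replicate 1 peaks. The distances between them were not compared with other sets of that size, so they are a description only. The nearest other broad peak was at a median of 612258 bp, 107 of the 677 had one within 100 kb, and 6 had one within 5 kb. The closest on A chromosomes were A04:53199277-53201004 and A04:53202002-53203884, 997 bp apart, with 1 second-list peak of 926 bp on the former and 3 of 979, 246 and 280 bp on the latter. The closest on D chromosomes were D09:43363079-43365711 and D09:43365968-43368338, only 256 bp apart and together longer than any single peak, with 324 and 494 bp pieces on the former and 659 and 928 bp pieces on the latter. The third pair within 5 kb, chosen after its values were seen, was on D04 at 34462367-34464091 and 34465435-34467399. By windows of 1 Mb, the most broad peaks were 6 on D05 from 15 to 16 Mb and 6 on D09 from 43 to 44 Mb, among 71 and 52 narrower peaks. D04 from 34 to 35 Mb held 5 among 16. Of 1931 windows that held a peak, 1440 held no broad one.

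The broad peaks had no H3K27me3 replicate 1 peak on them by choice, so only the distance to the nearest was compared. It had a median of 36918 bp (quartiles 13540 and 83783 bp, range 288 to 906314 bp), against 36321 bp for narrower peaks. Within 10 kb of an H3K27me3 peak were 130 broad peaks (19.2%) and 18.9% of narrower peaks. Within 1 kb were 6 broad peaks (0.886%) and 1.14% of narrower peaks. The log2 ratio was 0.13 ± 0.30 (SD, 13 pairs), above 0 in 9 of 13 pairs (exact permutation test, p = 0.133, adjusted p = 0.177), and did not pass.

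The broad second list, 80.1% of whose peaks lay on H3K27me3 replicate 1, was not used in the choice. It overlapped 8 of the 677 broad peaks (1.18%, 0.512 to 2.32%), against 0.325% of all 36356 eligible peaks and 0.308% of narrower ones. The difference in share was 0.905 ± 2.06 percentage points (SD, 13 pairs) and above 0 in 5 of 13 pairs (exact permutation test, p = 0.158, adjusted p = 0.181). It was thus within the spread between pairs. The 8 were on A02, A07, A10, D02, D05, D08 and, for 2 of them, D10, with 228 to 908 bp of overlap. For scale, this list overlapped 95.2% of the 126 broad H3K4me3 peaks that lay on H3K27me3 replicate 1 and outside the second narrow list, and 3.77% of the 159 in neither list.

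Along the chromosomes broad peaks lay mostly towards the ends, as narrower peaks did. The distance to the nearer chromosome end, taken from the first to the last listed peak, had a median of 15.3% of the chromosome length (quartiles 6.98 and 25.2%), against 12.9% (5.34 and 25.3%) for narrower peaks. In the A subgenome the medians were 12.6% for broad and 10.9% for narrower peaks, and in the D subgenome 16.7% and 15.1%. The outermost 5% at each end held 128 broad peaks (18.9%, 16.0 to 22.1%) and 23.8% of narrower peaks, while the stretch from 15 to 20% held 108 (16.0%) and 10.8%. The inner part of each chromosome, over 25% of its length from both ends, held 25.6% and 25.5%. The difference of medians was 1.52 ± 2.91 percentage points (SD, 13 pairs), above 0 in 9 of 13 pairs (exact permutation test, p = 0.0845, adjusted p = 0.136), and did not pass. Against peaks from 1000 to under 1500 bp the difference was only 0.20 points (exact permutation test, adjusted p = 0.793). For the 115 peaks of at least 2000 bp, set against all narrower ones, it had the opposite sign, -1.50 points.

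**Figure D4:**
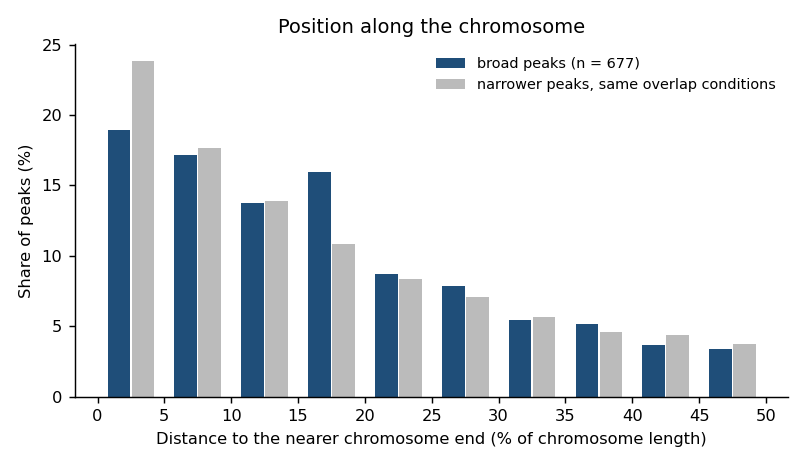
The horizontal axis is the distance to the nearer chromosome end (percent of chromosome length) and the vertical axis the share of peaks (percent) in each bin, for the 677 broad and the 35679 narrower peaks. Both crowd towards the ends, and the largest excess of broad peaks is in the bin from 15 to 20%, at 16.0% against 10.8%.

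The D subgenome held 374 of the 677 broad peaks, or 55.2% (51.4 to 59.0%), and 50.5% of the narrower peaks. Each Mb of A chromosome held 0.261 broad and 15.2 narrower peaks, and each Mb of D chromosome 0.483 and 23.3. On the log2 scale the D number over the A number was 0.42 ± 0.64 (SD, 13 pairs), above 0 in 8 of 13 pairs (exact permutation test, p = 0.0391, adjusted p = 0.104). Taken relative to the number of narrower peaks it was 0.38 ± 0.57, above 0 in 9 of 13 pairs (exact permutation test, p = 0.0344, adjusted p = 0.104). Neither passed after adjustment over the 8 tests. A single pair could decide the call: without pair 6 the relative ratio was 0.46 (exact permutation test, adjusted p = 0.0430). At a width minimum of 2000 bp (115 peaks) the relative ratio was 0.65 (exact permutation test, adjusted p = 0.188). At 1000 bp (5041 peaks) it was only 0.02, above 0 in 5 of 13 pairs (exact permutation test, adjusted p = 0.757). Without use of the second narrow list it was 0.21 (exact permutation test, adjusted p = 0.173), and with the roles of both narrow lists exchanged it was -0.24 (adjusted p = 0.298), on 185 broad peaks.

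The spread between pairs was larger than the mean D to A difference. D05 carried 48 broad peaks and A05 41, and A12 carried 43 and D12 34. A11 and D11 had 40 each. Pairs 8 and 9 had the largest ratio, 1.32 on the log2 scale, from 8 on A08 and 20 on D08 and from 12 on A09 and 30 on D09. Pair 6 had the lowest, -0.47, from 25 on A06 and 18 on D06. As a share of the peaks that met the overlap conditions, broad peaks ranged from 0.552% on A08 to 2.65% on A12. The median widest second-list peak ranged from 670 bp on D02 to 1069.5 bp on A09, and on each of the 26 chromosomes it was above that of narrower peaks, which ranged from 514 to 562.5 bp.

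**Figure D5:**
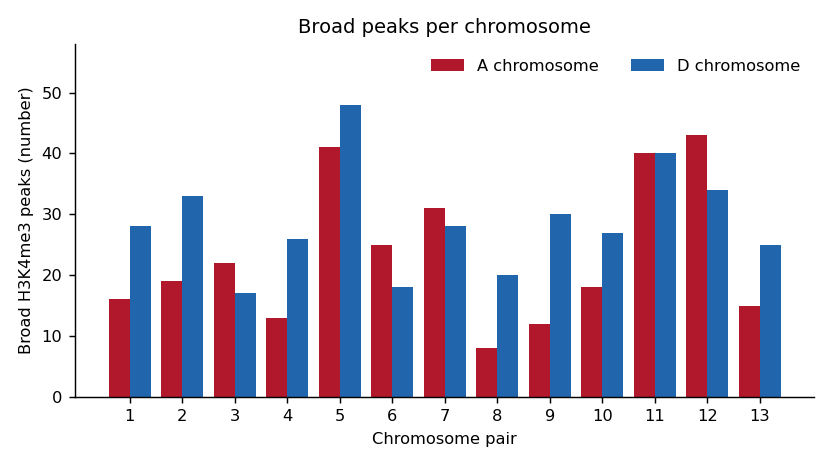
Bars give the number of broad peaks on each chromosome, with the A and D member of each pair side by side. D05 has the most with 48 and A08 the fewest with 8, and the D bar is the higher in 8 of 13 pairs.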

How the data were processed

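Per the labels and the study's methods, the authors trimmed reads (fastp), aligned them to the TM-1 assembly (Bowtie2), removed duplicates (Picard) and reads of low mapping quality (samtools) and called peaks of the first library of each mark with MACS2 at q 0.01, in narrow mode for H3K4me3 and broad mode for H3K27me3. The control, tool versions and the mode for the second libraries are not given in the sources used here. The deposited lists give only chromosome, start and end in bp (another unit than counts or signal), so depth and precision per peak are unknown. Peaks on unplaced scaffolds were set aside (67 met the same conditions).

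Overlaps, widths and distances were computed with Python 3.11.15, numpy 2.4.6 and scipy 1.17.1, checked against bedtools (0 differences) and tested on simulated data. Figures used matplotlib 3.10.9. Chromosome length ran from the first to the last listed peak. Each comparison flipped the signs of 13 chromosome-pair values in all ways (exact permutation test, two-sided), Benjamini-Hochberg adjusted over 8 tests with a threshold of 0.05. Shares have exact Clopper-Pearson 95% intervals. Named regions were, in each subgenome, the 3 widest, 1 with the most second-list peaks (ties by chromosome and start, tied peaks being described beside it after their values were seen), the 1 with the widest second-list peak, the most isolated 1 and the closest pair. The members, lists and rule were chosen with earlier results of these data known. Alternatives changed width, overlap, merging, comparison set, pairing and the role of each list. Setting aside the second narrow list was added after the data were seen.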

Additional observations from a re-analysis of the deposited data

How the results depend on the processing

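Of 190 recomputed values, 86 from 20 settings and 104 with 1 chromosome pair left out, 167 kept their direction and side of the threshold, 10 passed it newly in the same direction and 13 changed direction. Some of the 167 were fixed beforehand. Merging second-list peaks under 100 bp apart joined none, as the smallest gap was 124 bp. Crossing the partners of pairs 2 and 3, and of 4 and 5, can change the spread of a D to A difference but not its mean or direction. The causes were not tested except as given. The larger width in the second narrow list passed in all 12 alternatives (0.25 to 1.07 on the log2 scale) and without each pair (0.69 to 0.72). The other 7 comparisons depended on the settings. The distance to the nearest peak passed the exact permutation test with a width minimum of 1000 bp (0.43, adjusted p = 0.000977, 5041 peaks), with peaks on H3K27me3 kept (0.29, 0.0124), with the narrow lists exchanged (0.64, 0.0352), with the nearest second-list peak (0.41, 0.00781) and, chosen after the data were seen, without the second narrow list (0.47, 0.00781). It turned to -0.17 against peaks from 1000 to under 1500 bp and to -0.10 against peaks from 500 to under 1500 bp. Position passed at 1000 bp (1.57 points, 0.00846) and turned to -1.50 at 2000 bp, where 12 pairs had a value. The D minus A split share turned to -16.0 points at 2000 bp, -17.3 with the lists exchanged, -2.00 with peaks under 500 bp apart merged and -2.97 for 3 or more pieces, and ran from -0.812 to 2.60 without 1 pair, below 0 without pair 3, 9 or 11. At 2000 bp the broad second list overlapped 0 of 115 peaks. An upper limit of 3 counts, not an exact interval, allows a share of up to 2.61%. The -0.323 points for this list are thus only the narrower peaks' share with a minus sign and show no lower share. Its difference was 3.98 with peaks on H3K27me3 kept (0.0124) and 1.02 with merging (0.00488). The distance to H3K27me3 passed where 50% of the peak had to be covered (0.30, 0.0273). With the lists exchanged the D to A ratio was -0.19 and the relative ratio -0.24. Without 1 pair the relative ratio ran from 0.30 to 0.46 and passed without pair 6 (0.46, exact permutation test, adjusted p = 0.0430). No paired analysis was possible because no test compared groups of samples. Leaving out the second narrow list is the setting without it, and leaving out the first gives the same 185 broad peaks as exchanging the lists, since all 189 broad second-list peaks lay on a first-list peak and 4 lay on H3K27me3.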
